A study of Mus musculus with 6 samples.

Results

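The genes described here make sterols and fatty acids: the enzymes of the mevalonate and cholesterol pathway, the enzymes that make, desaturate and elongate fatty acids, and the regulators that control both. They were chosen by name, 37 genes in all, and each was read from its brightest probe among the probes that carry that name or its older form. A probe was found for 35 of them, and Scap and Acat2 matched no probe name. Insig1 was not well above background in any channel of any array, so 34 genes entered the tests, among 19718 probes tested of 20868 on the array. Nsdhl, Me1 and Acaca each had a further probe, which is described where it differs.

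RNA was taken from mouse HACA cells, of which the labels say no more than the name, that carried a short hairpin RNA against Loxl2 (shLoxl2), against Snail (shSnail) or, as the control line, against GFP (shGFP). All the cells therefore expressed a hairpin. Loxl2 is a member of the lysyl oxidase family, and Snail, from the gene Snai1, is a zinc-finger protein that represses transcription. Each of the 6 Agilent arrays of 2 colours held silenced RNA in one dye and shGFP RNA in the other, and every value below is a log2 ratio of silenced to shGFP RNA unless stated. The shLoxl2 group had 4 arrays, from replicates 1 and 2 with the silenced RNA once in Cy3 and once in Cy5, and the shSnail group had 2 arrays, where the silenced RNA was in Cy5 both times. The 2 arrays of a shLoxl2 number were averaged as a dye swap, so each group has n = 2. Whether replicates were separate cultures, or a line was 1 clone, is not in the labels, and the p-values then measure only the spread between these samples, which may be technical. The shGFP RNA counts as 1 control sample, whose own spread is left out of every test.

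Cells make cholesterol from acetyl-CoA: the mevalonate pathway gives isoprenoid units, squalene is built from them and closed into a ring, and the ring is trimmed to cholesterol. Fatty acid synthase (Fasn) builds saturated fatty acids from acetyl-CoA and malonyl-CoA, and desaturases and elongases then reshape them. Both routes are driven by the sterol regulatory element-binding proteins (SREBPs, from Srebf1 and Srebf2), which Scap escorts to the Golgi for cleavage and which the Insig proteins hold back when sterols are plentiful. In the epidermis these lipids are known as building material of the skin barrier.

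Neither targeted transcript could be shown to be lower. The Loxl2 ratio was 1.38 and 1.04 on the shLoxl2 arrays with silenced RNA in Cy3 and -1.30 and -0.68 on those with it in Cy5, which follows the dye, and the mean of the averaged pairs was 0.11 ± 0.12 (SE, limma adjusted p = 0.59). On the 2 shSnail arrays the Snai1 probe was not well above background, whichever channel was read. The names shLoxl2 and shSnail below are thus those of the labels. Of 10 keratinocyte markers, 7 (Krt5, Krt14, Krt18, Trp63, Itga6, Cdh3 and Perp) were well above background in all 12 channels. So was 1 of 7 adipocyte markers (Fabp4), 1 of 7 fibroblast markers (Pdgfra) and 4 of 7 leukocyte markers (Cd68, Csf1r, Cd3e and Emr1), with none of 5 hepatocyte and none of 5 endothelial markers. The summed linear level of the keratinocyte markers ran from 115100 to 129400 in the shSnail channels, from 169700 to 255000 in shLoxl2 and from 146400 to 331100 in shGFP. These sums hold channels saturated for Krt5, Krt18 and Perp on shLoxl2 arrays, and the shSnail channels are all Cy5, so they give no order of the groups. Of the 10, 4 were called lower and 1 higher in shSnail against shGFP. In shLoxl2, Epcam (1.505) and Cdh1 (1.08) were called higher and Trp63 (-1.15) lower. Cd68 was higher (0.66, limma adjusted p = 0.0185) and Pdgfra lower (-0.82, 0.0121) there as well. Each was the only marker called of the 6 tested in its list, leukocyte or fibroblast. The leukocyte median was -0.10, with 5 of the 6 values below 0, and the fibroblast median -0.17, with 4 below 0. The part of these markers in the results below was not tested. In bulk RNA, fewer cells of a type and less RNA per cell cannot be told apart. A probe's dye effect, estimated from the shLoxl2 pairs, had an SD of 0.463 over all probes and agreed between the pairs with a correlation of 0.79 across probes. All shLoxl2 arrays were scanned on the same day and both shSnail arrays on another. Scan day and silenced gene thus cannot be told apart in shSnail against shLoxl2. In shSnail against shGFP, the dye effect that was removed came from the other scan day, and whether it held there was not tested.

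SREBPs bind sterol regulatory elements, usually beside boxes for the factors NF-Y and Sp1, and the promoters of 3 members that were lower in shSnail are shown with those sequences. RefSeq promoter windows (build GRCm38.p6, 250 bases before to 50 after the start) were found for 30 members, 40 windows in all. They were searched on both strands for a sterol regulatory element core (TCACNCCAC), the NF-Y box (CCAAT), the Sp1 box (GGGCGG) and the Snail E-box (CAGGTG). Capitals mark the sterol element core and the NF-Y boxes, which read ATTGG where they lie on the other strand.

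Hmgcs1, the only member with a match to the sterol element core, chr13:119690101-119690400, + strand: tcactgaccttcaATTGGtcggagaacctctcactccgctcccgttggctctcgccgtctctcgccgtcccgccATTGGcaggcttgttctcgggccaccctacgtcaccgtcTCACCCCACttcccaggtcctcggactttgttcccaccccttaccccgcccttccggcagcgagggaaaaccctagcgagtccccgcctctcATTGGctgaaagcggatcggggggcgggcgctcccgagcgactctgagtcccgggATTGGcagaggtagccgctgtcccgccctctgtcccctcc
Fasn, chr11:120824498-120824797, - strand: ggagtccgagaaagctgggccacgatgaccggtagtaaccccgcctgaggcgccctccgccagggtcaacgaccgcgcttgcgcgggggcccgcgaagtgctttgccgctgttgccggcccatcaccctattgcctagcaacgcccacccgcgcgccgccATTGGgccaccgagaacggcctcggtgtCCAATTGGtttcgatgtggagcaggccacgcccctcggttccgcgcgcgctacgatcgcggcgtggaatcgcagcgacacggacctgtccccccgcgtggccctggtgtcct
Dhcr7, chr7:143829964-143830263, + strand: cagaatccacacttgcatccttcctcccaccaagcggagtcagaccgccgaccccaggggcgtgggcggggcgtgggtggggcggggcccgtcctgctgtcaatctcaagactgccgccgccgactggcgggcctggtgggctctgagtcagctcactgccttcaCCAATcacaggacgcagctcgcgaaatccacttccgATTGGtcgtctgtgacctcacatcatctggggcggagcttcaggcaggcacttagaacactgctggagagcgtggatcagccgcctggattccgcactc

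The Hmgcs1 core lay 137 bases before the start, with 4 NF-Y boxes in the same window. Fasn and Dhcr7 were added to the display after their values were seen. The Fasn window held 3 NF-Y boxes, of which the pair nearest the start overlap (62 and 59 bases before it). Of the 3 Dhcr7 windows, the one shown was the one with NF-Y boxes, 85 and 49 bases before the start. Over all 32851 promoter windows, 1.24% held the sterol element core, against 1 of the 40 member windows. The NF-Y box was in 37.4% of all windows and in 26 of the 40, the Sp1 box in 35.7% and 30 of the 40, and the Snail E-box in 20.2% and 11 of the 40. None of the windows shown held the Snail E-box. Of the members called in shSnail, Pmvk and Me1, both higher, had a window that did. Fdps, Fdft1, Sqle and Scd2, also called higher there, had no window to search. A match is a string of letters in a window and not a measured binding site.

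In shLoxl2 cells, transcripts of 3 mevalonate and 3 sterol ring enzymes, of fatty acid synthase and of a desaturase and an elongase were higher than in shGFP cells, and that of the last sterol step was lower. Of 34 members, 9 were called higher (Mvk, Pmvk, Fdps, Nsdhl, Hsd17b7, Sc5d, Fasn, Scd2 and Elovl1) and 1 lower (Dhcr7). That is 29.4% of the members called, where 13.8% of all probes tested were called, 8.01% higher and 5.83% lower (limma, adjusted p below 0.05). The median log2 difference was 0.16 over the members and -0.01 over all probes, and 25 of the 34 values were above 0. Members were also brighter: their median mean log2 intensity was 10.32 against 8.07 over all probes tested. The part of brightness in the share called was not tested. Nsdhl was called on its brightest probe only, and its further probe had the opposite sign. With the scanner software's log ratios no member was called in either direction. Without shLoxl2 replicate 1 only Mvk and Fasn were called higher, and without replicate 2 only Fdps, Fasn and Elovl1. Dhcr7 was called in neither. Without either shSnail replicate, whose arrays share the estimate of spread, Nsdhl, Sc5d and Dhcr7 were not called.

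In shSnail cells the members moved in both directions. After removal of each probe's dye effect, 6 were called higher (Pmvk, Fdps, Fdft1, Sqle, Me1 and Scd2) and 3 lower (Hmgcs1, Dhcr7 and Fasn). The share called was 26.5% (17.6% higher and 8.82% lower), beside 21.3% of all probes (8.77% higher and 12.5% lower). The total is thus near the background, while the higher share was above it and the lower share below it. The median was 0.14 over the members and -0.04 over all probes. With median centring in place of loess it was -0.08 against 0.10, with 5 members higher and 10 lower. Of all probes tested, 4661 were then higher and 4040 lower, 8701 in place of 4203. All 9 calls also held with no dye correction and with a scaled one. By that rule 5.05% of all probes were higher and 10.2% lower, beside the same 17.6% and 8.82% of the members. With no dye correction 10 members were higher and 6 lower, beside 13.0% and 18.4% of all probes, and with the scaled one 9 and 4, beside 8.93% and 14.2%. Without shSnail replicate 1, Fdft1, Sqle and Scd2 remained called higher and Dhcr7 lower. Without replicate 2, Fdft1 and Scd2 were higher and Hmgcs1 and Dhcr7 lower. Leaving out a shLoxl2 replicate, which the dye effect rests on, took the calls of Fdps, Me1 and Fasn either way, and that of Pmvk for replicate 2. Both comparisons use shGFP RNA as the control, so their values are set side by side and not correlated.

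Compared directly on the 4 arrays with silenced RNA in Cy5, shSnail was higher than shLoxl2 for Fdft1 and Scd2 and lower for Hmgcs1 and Fasn. These 4 calls are 11.8% of the members, where 12.8% of all probes were called, 4.22% higher and 8.54% lower. The members' share was therefore near the background. With median centring 3 members were higher and 13 lower, while 5012 of all probes tested were higher and 4347 lower. The number called thus rose over all probes too, to 9359 from 2516. Without either shSnail replicate, which leaves 1 shSnail array, no member was called in this comparison by limma.

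**Figure D1:**
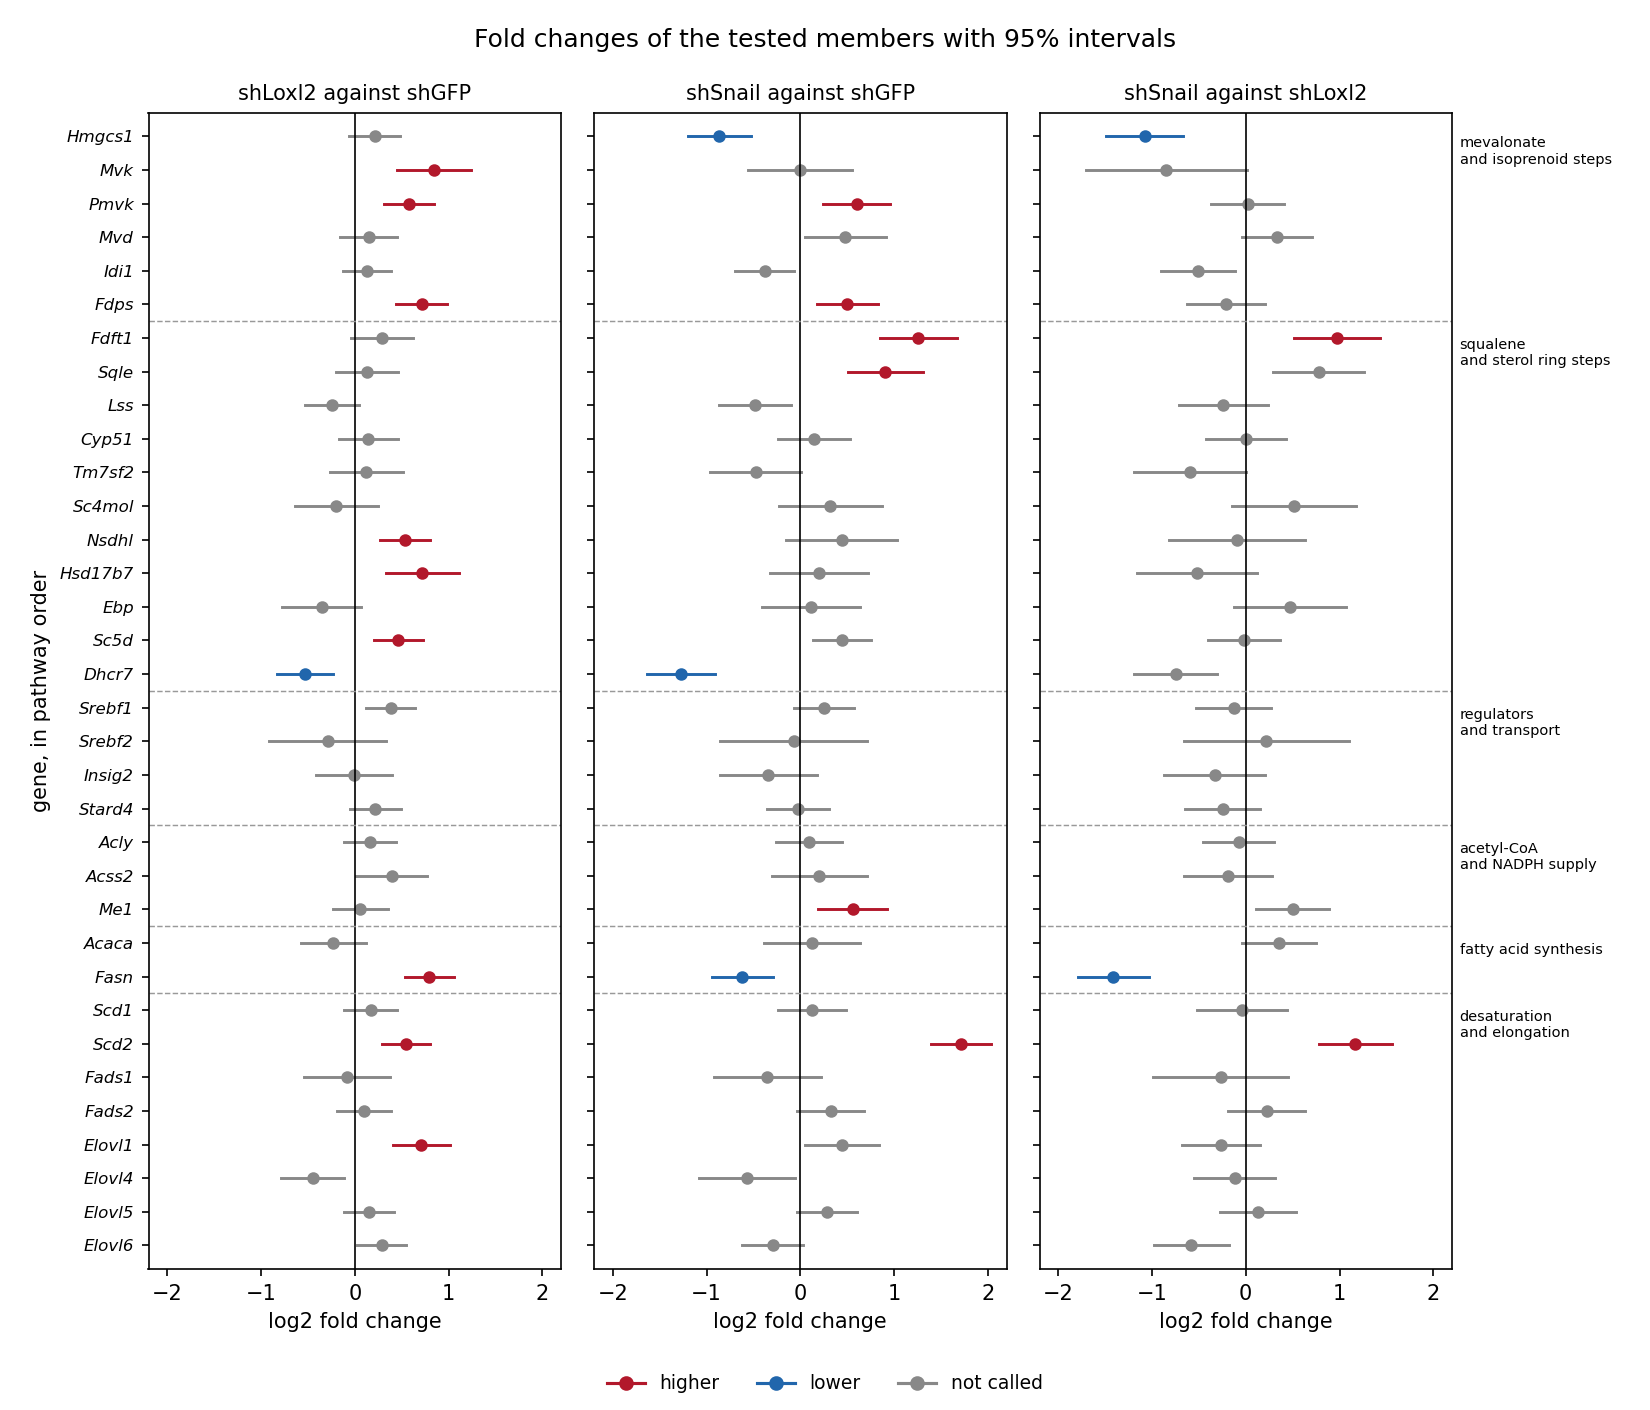
Log2 fold change (points) and 95% interval (bars) of the 34 tested members in the 3 comparisons, in pathway order, coloured by limma's call at an adjusted p of 0.05. In shLoxl2 against shGFP 9 members are coloured as higher and 1 as lower; in shSnail against shGFP 6 are higher and 3 lower, among them Fasn, which is higher in the left panel.

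Among the 6 members of the mevalonate route, 3 were higher in shLoxl2, with a median of 0.40 over the 6, and in shSnail 2 were higher and 1 lower. On the shLoxl2 arrays, given here and below in the order replicate 1 Cy3, replicate 1 Cy5, replicate 2 Cy3, replicate 2 Cy5 for the dye of the silenced RNA, Mvk (mevalonate kinase) read 0.98, 0.14, 1.16 and 1.11. All were above 0 and the Cy5 array of replicate 1 was the low one. The difference was 0.85 ± 0.16 (SE, adjusted p = 0.023), a 1.80-fold rise, and the value ran from 0.31 to 1.87 over 13 alternative settings. On the shSnail arrays Mvk read -0.28 and -0.16, and -0.06 and 0.06 after dye removal.

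Pmvk, phosphomevalonate kinase, acts next. It read 0.33, 0.71, 0.71 and 0.59 on the shLoxl2 arrays and 0.66 and 0.68 on the shSnail arrays. Every array was above 0 and the groups overlapped. The difference from shGFP was 0.58 ± 0.11 in shLoxl2 (SE, adjusted p = 0.0219) and 0.60 ± 0.15 in shSnail (adjusted p = 0.0333). Between the silenced groups it was 0.02, with a 95% interval from -0.37 to 0.41.

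Fdps makes farnesyl diphosphate, the branch point between sterols and protein prenylation. Its values were 0.81, 0.68, 0.85 and 0.51 in shLoxl2 and 0.45 and 0.32 in shSnail, so all arrays were above 0 and the shSnail arrays were the lowest. It rose by 0.71 ± 0.11 in shLoxl2 (SE, adjusted p = 0.0122) and by 0.50 ± 0.14 in shSnail (adjusted p = 0.0445), the latter close to the threshold. The call in shSnail was kept in 6 of 15 alternative settings.

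Hmgcs1, the HMG-CoA synthase that commits acetyl units to the pathway, differed between the silenced lines. Its shLoxl2 arrays read 0.20, 0.23, 0.07 and 0.35, and its shSnail arrays -0.87 and -0.70, without overlap. In shSnail the transcript was 1.82-fold lower than in shGFP (-0.86 ± 0.14, SE, adjusted p = 0.00838) and in shLoxl2 the difference of 0.21 did not pass (adjusted p = 0.276). Between the silenced groups the difference was -1.08, with a 95% interval from -1.49 to -0.67 (adjusted p = 0.0228). Without shSnail replicate 1 the fall against shGFP was 0.78 and missed the threshold (adjusted p = 0.0656). Among the 30 members with a promoter window, only that of Hmgcs1 held the sterol element core. No window could be searched for 7 others, among them Fdps, Fdft1, Sqle and Scd2. The Hmgcs1 probe lies on the unplaced chr13_random sequence of mm8.

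The other mevalonate members did not pass in any comparison. Mvd, the decarboxylase, differed by 0.15 in shLoxl2 and 0.48 in shSnail (adjusted p = 0.107). In shSnail Mvd was called higher with no dye correction (0.52, adjusted p = 0.0263) and with a scaled one (0.50, 0.0432). Idi1, which isomerises isopentenyl diphosphate, differed by 0.13 and -0.38 (adjusted p = 0.088). The files place its probe at chr2:53516550-53516609 (mm8), whereas the Idi1 promoter window lies on chr13 (GRCm38.p6). Whether this probe reads Idi1 was not tested.

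The squalene and ring steps were split by step. Squalene synthase (Fdft1) and squalene epoxidase (Sqle), which make and oxidise squalene, were higher in shSnail. Fdft1 read 0.55, 0.40, 0.09 and 0.11 on the shLoxl2 arrays and 1.31 and 1.15 on the shSnail arrays, which lay above all shLoxl2 arrays. It was 2.40-fold higher in shSnail than in shGFP (1.26 ± 0.17, SE, adjusted p = 0.00469) and 1.97-fold higher than in shLoxl2 (adjusted p = 0.0328). In shLoxl2 against shGFP it did not pass (0.29, adjusted p = 0.235). Its probe lies at chr14:62100541-62100600 (mm8).

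Sqle read -0.22, 0.23, 0.05 and 0.46 in shLoxl2 and 0.97 and 1.28 in shSnail. The shSnail arrays were again the highest and the shLoxl2 arrays straddled 0. The rise in shSnail was 0.91 ± 0.17 (SE, adjusted p = 0.0126). The difference from shLoxl2, 0.78 with a 95% interval from 0.29 to 1.26, missed the threshold (adjusted p = 0.0577).

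Dhcr7, the reductase that gives cholesterol in the last step, was lower with either hairpin. It read -0.47, -0.67, -0.34 and -0.62 in shLoxl2 and -1.54 and -1.25 in shSnail. All 6 arrays were below 0, and the shSnail arrays lay below all shLoxl2 arrays. The difference from shGFP was -0.53 ± 0.12 in shLoxl2 (SE, adjusted p = 0.0412). In shSnail the transcript was 2.42-fold lower (-1.28 ± 0.15, SE, adjusted p = 0.00338). The shLoxl2 call was lost when any 1 of the 4 samples was left out of the fit, with adjusted p from 0.0578 to 0.144. The difference between the silenced groups, -0.75, had an adjusted p of 0.0518 and passed in 4 alternative settings. Its probe lies at chr7:143657738-143657797 (mm8).

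Hsd17b7 and Sc5d, enzymes of the later ring steps, rose in shLoxl2 with every array above 0. The ketoreductase Hsd17b7 read 0.78, 0.63, 0.51 and 0.96, a rise of 0.72 ± 0.16 (SE, adjusted p = 0.0354), and its shSnail arrays split at -0.01 and 0.56. The sterol desaturase Sc5d read 0.31, 0.58, 0.34 and 0.62 in shLoxl2 and 0.53 and 0.63 in shSnail. The Sc5d difference was 0.46 in shLoxl2 (adjusted p = 0.0411) and 0.45 in shSnail (adjusted p = 0.0555, or 0.0113 with no dye correction and 0.0118 with a scaled one). Only the first passed, but the direct difference was -0.02, with a 95% interval from -0.41 to 0.37.

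Nsdhl, which removes methyl groups from the ring together with Hsd17b7, was called higher in shLoxl2 but did not have 1 direction. Its brightest probe, at chrX:69207913-69209094 (mm8), read 1.82, -0.76, 1.07 and 0.01, high where silenced RNA was in Cy3, with a dye effect of -0.91. The averaged pairs were close, 0.53 and 0.54, and gave the call (0.54 ± 0.11, SE, adjusted p = 0.0288). In shSnail the probe read -0.55 and -0.40, a fall of 0.47 with no dye correction (-0.47, adjusted p = 0.0234) and a difference of 0.44 after dye removal (adjusted p = 0.257). The further probe, at chrX:69193793-69193852, read -0.55, -0.19, -0.06 and -0.15 in shLoxl2, with a mean of -0.24 that did not pass (adjusted p = 0.263). The 2 probes of Nsdhl thus disagreed in sign. Both lay below the median log2 intensity of all probes tested, 8.07, with means of 8.04 and 6.76.

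Of the other ring enzymes none passed. Lanosterol synthase (Lss) differed by -0.24 in shLoxl2 and -0.48 in shSnail, with an adjusted p of 0.076 in shSnail, 0.0146 with no dye correction and 0.0223 with a scaled one. Cyp51, the lanosterol demethylase, differed by 0.15 in both, but with no dye correction it was called lower in shSnail (-0.47, adjusted p = 0.036). Tm7sf2 differed by 0.12 and -0.47, Sc4mol (now named Msmo1) by -0.20 and 0.32, and Ebp by -0.35 and 0.12.

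**Figure D2:**
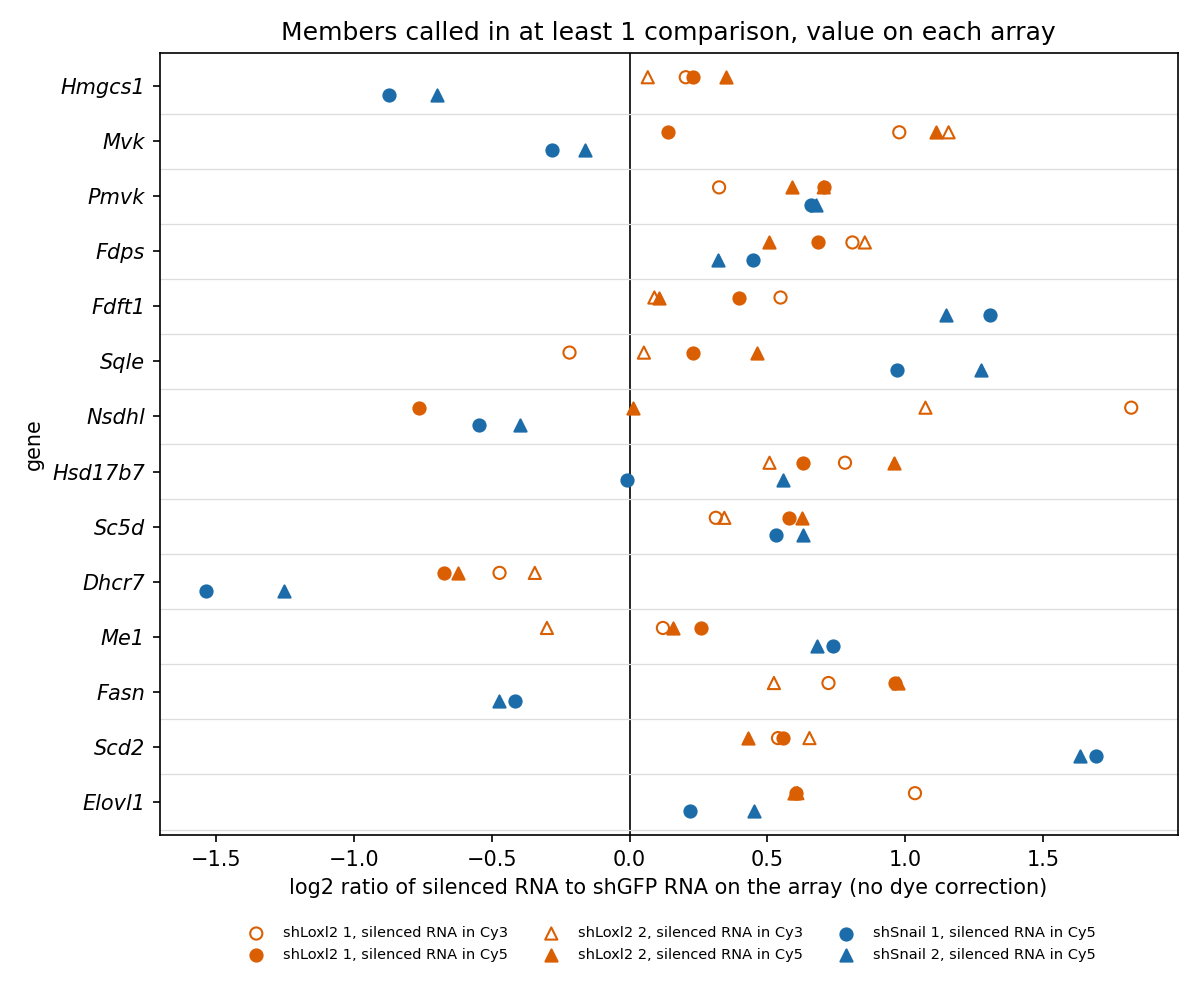
Log2 ratio of silenced to shGFP RNA on each of the 6 arrays, with no dye correction, for the 14 members called in at least 1 comparison. Filled symbols have the silenced RNA in Cy5 and open symbols in Cy3. The blue shSnail symbols overlap the orange shLoxl2 symbols for Pmvk, Nsdhl, Hsd17b7 and Sc5d and not for the others. The orange Nsdhl symbols separate by dye. These members were chosen by their calls on the same arrays, and the shSnail symbols are all Cy5, so the separation is no test of the groups. How often it occurs over all probes was not counted.

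Transcripts of the regulators did not pass in any comparison. Srebf1, whose protein drives mainly fatty acid genes, read 0.45, 0.38, 0.47 and 0.22 in shLoxl2 and 0.16 and 0.19 in shSnail. All were above 0, and the differences of 0.38 (adjusted p = 0.0706) and 0.25 (adjusted p = 0.222) missed the threshold. Srebf2, which drives mainly sterol genes, read -0.72 and -0.76 in replicate 1 and 0.30 and 0.01 in replicate 2 of shLoxl2, so the replicates split. Its shSnail arrays split as well, at -0.48 and 0.17, and the 95% interval in shLoxl2 ran from -0.91 to 0.33.

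Insig2, which retains Scap in the endoplasmic reticulum, read -0.04, 0.44, -0.66 and 0.22 in shLoxl2 and 0.21 and -0.22 in shSnail, with no common direction. Insig1 read between -0.31 and 0.42 on the 6 arrays, but no channel was well above background and no test was made. Stard4, a carrier of cholesterol between membranes, differed by 0.22 in shLoxl2 and -0.02 in shSnail.

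Among the enzymes that supply acetyl-CoA and NADPH, malic enzyme (Me1) was the only one called. It read 0.12, 0.26, -0.30 and 0.16 in shLoxl2 and 0.74 and 0.68 in shSnail, where the groups did not overlap. The rise in shSnail was 0.56 ± 0.15 (SE, adjusted p = 0.045), just past the threshold. The further Me1 probe read 0.62 and 0.21 on the shSnail arrays and did not pass (0.23, adjusted p = 0.414). Acly, which cleaves citrate to acetyl-CoA, differed by 0.16 and 0.09, and Acss2, which activates acetate, by 0.39 and 0.20. With no dye correction Acss2 was called higher in shSnail (0.57, adjusted p = 0.0369).

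Fasn was the one member called in opposite directions. It read 0.72, 0.96, 0.52 and 0.98 on the shLoxl2 arrays and -0.41 and -0.47 on the shSnail arrays. All shLoxl2 arrays were above 0, both shSnail arrays below it, and the replicates of each group lay close together. Fasn was 1.74-fold higher in shLoxl2 (0.80 ± 0.11, SE, adjusted p = 0.00859) and 1.53-fold lower in shSnail (-0.62 ± 0.13, SE, adjusted p = 0.0215). The direct difference was 2.66-fold (-1.41, 95% interval from -1.79 to -1.03, adjusted p = 0.017). The shLoxl2 call held with either shLoxl2 replicate left out. The shSnail call against shGFP was lost without any 1 of the samples (adjusted p from 0.0566 to 0.113, differences from -0.67 to -0.56), and the direct call without either shSnail replicate (0.102 and 0.103). The Fasn probe lies at chr11:120623236-120623295 (mm8).

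Acaca, the acetyl-CoA carboxylase that makes malonyl-CoA for Fasn, gave no usable direction. Its brightest probe differed by -0.23 in shLoxl2 and 0.12 in shSnail, and neither passed. The further probe read 3.30, -2.99, 2.88 and -2.08 on the shLoxl2 arrays and -1.67 and -1.57 on the shSnail arrays, which follows the dye. In shSnail that probe changed from -1.62 with no dye correction (adjusted p = 0.000932) to 1.19 after full removal (adjusted p = 0.0153) and -0.35 with a scaled one (adjusted p = 0.238). In its shSnail channel it was not well above background on either array, whereas the shGFP channel was on both, which gives at least 2.65-fold more signal in shGFP and is open to the same dye effect.

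The desaturases and elongases held the member with the highest rise. Scd2, a stearoyl-CoA desaturase that makes monounsaturated fatty acids, read 0.54, 0.56, 0.65 and 0.43 in shLoxl2 and 1.69 and 1.63 in shSnail. All 6 arrays were above 0 and the shSnail arrays were clearly apart. Scd2 was 1.46-fold higher in shLoxl2 (0.55 ± 0.10, SE, adjusted p = 0.0245) and 3.28-fold higher in shSnail (1.71 ± 0.13, SE, adjusted p = 0.00128). Between the silenced groups the difference was 1.17, with a 95% interval from 0.78 to 1.56 (adjusted p = 0.0185). The shLoxl2 call was lost without either shLoxl2 replicate (0.54, adjusted p = 0.0763 without replicate 1 and 0.55, 0.0582 without replicate 2), while the shSnail call against shGFP held without each sample in turn. Its probe lies at chr19:44359845-44359904 (mm8).

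The paralogue Scd1 differed by 0.17 and 0.13 and passed nowhere. Elovl1, an elongase of saturated fatty acids, read 1.04, 0.60, 0.61 and 0.60 in shLoxl2, a rise of 0.71 ± 0.12 (SE, adjusted p = 0.0181), and 0.22 and 0.45 in shSnail. The shSnail difference of 0.45 did not pass (adjusted p = 0.104), and the direct difference of -0.26 had a 95% interval from -0.69 to 0.15. Of the remaining members, Elovl4 differed by -0.45 and -0.57, Elovl5 by 0.15 and 0.29, Elovl6 by 0.29 and -0.30, Fads1 by -0.08 and -0.35 and Fads2 by 0.10 and 0.32, none of which passed. Elovl5 was called higher in shSnail with no dye correction (0.58, adjusted p = 0.0126) and with a scaled one (0.44, 0.0244).

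**Figure D3:**
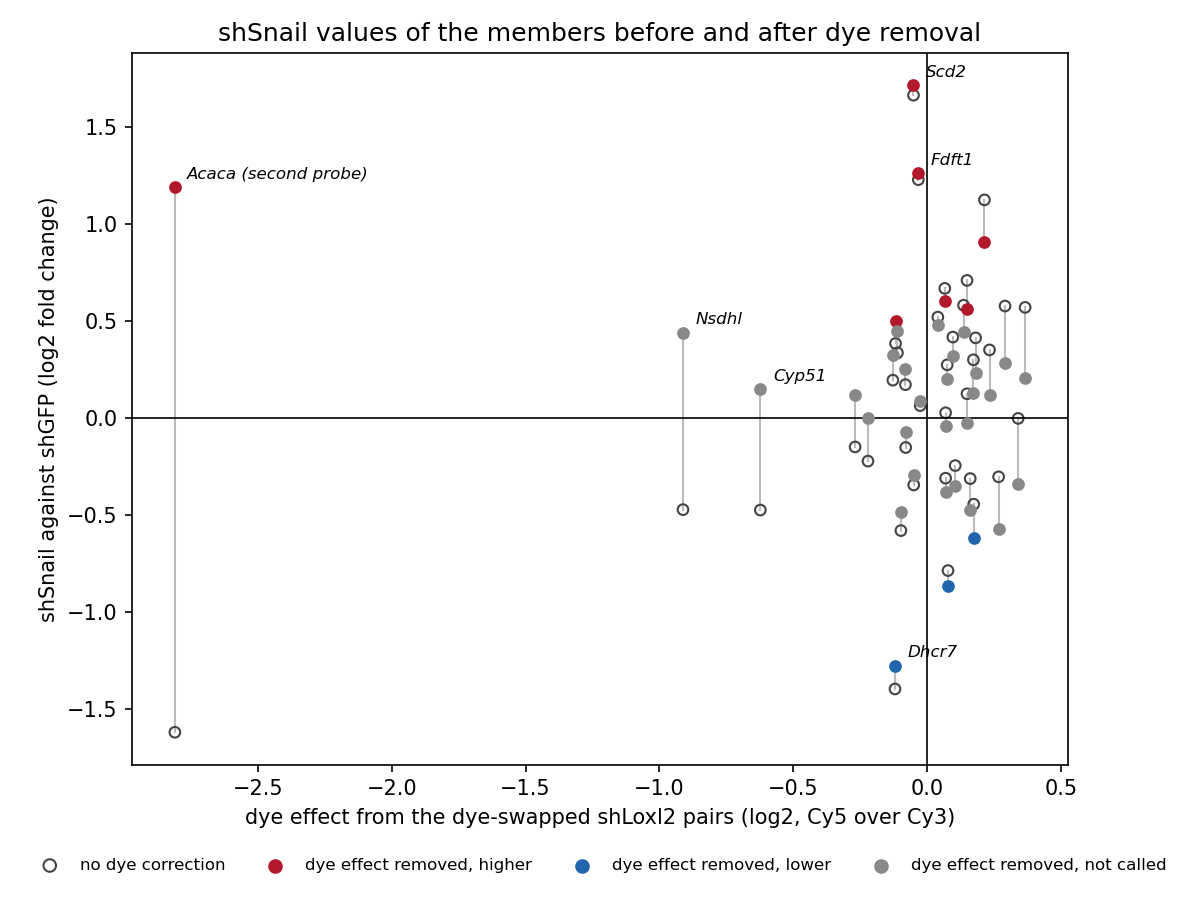
shSnail against shGFP (log2, vertical) for the probes of the tested members against the dye effect estimated from the shLoxl2 pairs (log2 Cy5 over Cy3, horizontal), with open circles before and filled circles after dye removal. Most members lie within 0.4 of a dye effect of 0 and move little, while Nsdhl, Cyp51 and the further Acaca probe cross 0 along the longest lines.

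Other genes of lipid metabolism, named in a list of 60 of which 58 were tested, were called at shares of 15.5%, 13.8% and 10.3% in the 3 comparisons, near or below those of all probes. In shLoxl2 8 were higher and 1 lower, in shSnail 3 were higher and 5 lower, and in shSnail against shLoxl2 1 was higher and 5 lower. Their medians, 0.04, 0.07 and -0.12, lay beside -0.01, -0.04 and -0.04 over all probes.

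Within that list, genes of fat storage and sterol export were among those called higher in shLoxl2. Dgat2, which makes triglycerides, rose by 1.47 (adjusted p = 0.00239) and Abcg1, a sterol exporter, by 1.48 (0.0027). Pgd, which makes NADPH, rose by 1.07 (0.00679) and Mbtps1, the site-1 protease that cleaves SREBPs, by 0.73 (0.0108), while Acsl4, an acyl-CoA synthetase, fell by 0.81 (0.00821). Dgat2 and Abcg1 were also lower in shSnail than in shLoxl2, by limma differences of -1.28 and -1.18 (adjusted p = 0.0192 and 0.024), calls that were lost without shSnail replicate 1 (0.127 and 0.166) or 2 (0.112 and 0.107). The adipocyte marker Fabp4 moved with them: it rose by 1.36 in shLoxl2 (adjusted p = 0.00219) and was the only one of the 7 adipocyte markers called. Of the 7 differences in shLoxl2, 5 were below 0, with a median of -0.10. The summed linear level of the 7 ran from 1737 to 2642 in shLoxl2, from 1512 to 1525 in shSnail and from 1289 to 1535 in shGFP channels. That sum includes Fabp4, the only 1 of the 7 well above background in all 12 channels, so it does not show a rise of the list. The part of these markers in these results was not tested.

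In shSnail, Acsl4 (-0.73, adjusted p = 0.0114) and the transporters of cholesterol out of lysosomes, Npc2 (-0.66, 0.0178) and Npc1 (-0.68, 0.0202), were lower than in shGFP by limma. Tecr, which completes each round of elongation, and Mcat, the mitochondrial malonyl transferase, were higher (0.62, adjusted p = 0.031, and 0.83, 0.0323), Tecr without passing when no dye correction was made (adjusted p = 0.0835). The calls of Npc1, Npc2 and Tecr were lost without any 1 sample (adjusted p from 0.0514 to 0.128, 0.061 to 0.109 and 0.0708 to 0.164). Mcat kept its call only without shLoxl2 replicate 2, and Acsl4 lost its without shSnail replicate 1 (0.0833) or 2 (0.0534). Npc2 was called higher in shLoxl2 (0.65, adjusted p = 0.0161) and differed between the silenced groups by -1.31 (adjusted p = 0.0172), the first call lost without shLoxl2 replicate 1 (0.0596) and the second without shSnail replicate 1 (0.107) or 2 (0.114). Hsd17b12, an enzyme of fatty acid elongation, was lower in shSnail than in shLoxl2 by 0.81 (-0.81, adjusted p = 0.0412), a call lost without shSnail replicate 1 (0.222) or 2 (0.251). For Acsl5 no direction can be given in shSnail: it was 0.96 after dye removal (adjusted p = 0.0205) but -0.84 without (adjusted p = 0.0104). Its shSnail channel was not well above background, with at least 1.57-fold more signal in shGFP. That bound is open to the dye effect of the probe, -1.80. On the Cy5 arrays Acsl5 was called higher in shSnail than in shLoxl2 (0.86, limma adjusted p = 0.0357). The call was lost without shSnail replicate 1 (difference 0.81) or 2 (0.92).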

How the data were processed

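Arrays of 2 colours were read from the 6 scanner files, with dye directions from the labels. The deposited spot intensity values came from Agilent Feature Extraction (per the file headers 9.5.1.1, per the submitters' processing notes 6.1.1). The authors' value table holds log10 ratios of Cy5 over Cy3, uncentred (array medians 0.0371 to 0.098). Both its shSnail columns matched the scanner file of shSnail replicate 1, so this served as an alternative with 1 shSnail array.

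Mean intensities and local backgrounds were corrected by normexp (offset 50) and normalized by loess in limma 3.58.1 (R 4.3.3, data.table version 1.17.8), with control and outlier spots at weight 0. A probe was tested where 2 or more arrays had it well above background in 1 channel or both and no array had it as an outlier (lmFit, eBayes, Benjamini-Hochberg over all of them, threshold 0.05), after tests on simulated data. The number of arrays limits the precision. shLoxl2 against shGFP was fitted with the shSnail arrays sharing the spread. For shSnail, each probe's dye effect, the mean of opposite shLoxl2 Cy5 over Cy3 ratios, was removed in full. The scaled alternative used the slope of the shSnail ratios on that effect, 0.453. Probe coordinates are those of the files (mm8).

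The members and lists were chosen with earlier results of these data known. Values on every array were given for members passing with 1 direction on every array, the SREBP regulators and Nsdhl, and up to 6 other pathway genes were named per comparison, by smallest p. Some genes of that list are not reported here. Fabp4 was named after its values were seen. The design text states 3 hybridisations per condition, whereas the labels give 4 and 2.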

Additional observations from a re-analysis of the deposited data

Results flagged for a closer look

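Fasn differed between the silenced groups under the same contrast: it was called higher in shLoxl2 and lower in shSnail, and shSnail against shLoxl2 gave a log2 difference of -1.41, lower in 2 of 2 shSnail arrays than in every shLoxl2 array (limma adjusted p = 0.017). Npc2, a lysosomal cholesterol carrier, met the same condition with a difference of -1.31 (limma adjusted p = 0.0172). That call was lost without shSnail replicate 1 (adjusted p = 0.107) or 2 (0.114), as Fasn's was (0.102 and 0.103), and the Npc2 fall against shGFP was lost without any 1 sample. Its shLoxl2 arrays read between 0.57 and 0.72 and its shSnail arrays -0.64 and -0.80.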

How the results depend on the processing

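Of 34 members, 9 were called higher and 1 lower in shLoxl2. With the scanner software's log ratios and with the authors' value table both counts were 0, although 11 and 6 members were higher and 3 and 2 lower at an unadjusted p below 0.05. Leaving out 1 replicate gave 2 to 7 higher and 0 lower. The 2728 probes called became 774 with the scanner's ratios, 0 with the value table (3472 unadjusted) and 1733 to 2788 with 1 replicate left out. With the replicate block 4173 probes were called. Samples share only a number there: the deviations of same-numbered samples correlated at 0.323 over 2 numbers.

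In shSnail 6 members were higher and 3 lower. Higher counts were 3 with averaged pairs given more weight, 10 with no dye correction, 0 with the value table (4 unadjusted) and 2 to 4 with 1 replicate left out. Lower counts were 6 with no background subtraction, 10 with median centring, 6 with no dye correction, 0 with the value table (3 unadjusted) and 1 to 2 with 1 replicate left out. The 4203 probes called became 8701 with median centring, 0 with the value table (5606 unadjusted) and 1584 to 3144 with 1 replicate left out. With no dye correction the sign turned for Cyp51 (-0.47), Nsdhl (-0.47), Abcg1 (-0.47) and Acsl5 (-0.84), and with a scaled one too (-0.19, -0.06, -0.13 and -0.023).

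In shSnail against shLoxl2 2 members were higher and 2 lower. Counts higher and lower were 4 and 5 with no background subtraction, 1 and 1 with the scanner's ratios, and 0 and 0 with the value table (1 and 2 unadjusted). Median centring gave 13 lower, and leaving out 1 replicate 0 to 3 of each. The 2516 probes called became 9359 with median centring, 0 with the value table (3854 unadjusted) and 39 to 4278 with 1 replicate left out. The cause of these changes was not tested, except that the value table and left-out replicates leave fewer samples.

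Of the calls, 53.6% were higher with median centring and 24.2% with the scanner's ratios in shSnail against shGFP, beside 1729 of 4203, and 53.6% and 18.0% against shLoxl2, beside 833 of 2516. The median of all probes moved to 0.10 and 0.12 with median centring and to -0.28 with the scanner's ratios. No member turned its sign under an alternative in a comparison that called it, but none kept its call in all, since the value table gave no calls. A slide or scan-day block was not run, because each array had its own slide and each day held 1 silenced group.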
